A study of Mus musculus with 9 samples.

Results

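The enzymes of glycolysis and of the pentose phosphate pathway were followed across 3 sorted populations of mouse CD8+ T cells, together with the pyruvate dehydrogenase complex and its kinases, 4 enzymes next to glycogen and the transcription factor subunit Hif1a. The genes came from a list of 40 symbols, which stand for 39 genes because Pkm2 is the older symbol of Pkm. A gene was taken where a probe set of the deposited table named it, and where several did, the brightest by its mean across the 9 arrays was used. This gave 35 genes, of which 34 entered the test over 13152 genes in all. They are called the members below. Gapdh was carried by control probe sets and was fitted beside the others. Pgk1 and Pgam1 appeared only in probe sets that name several genes and are described apart, and Hk3 and Pfkfb4 had no probe set.

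Naive cells (CD44-lo/CD62L-hi) were sorted from normal female C3H.SW mice, 2 mice pooled for each preparation. Effector cells (CD44-hi/CD62L-lo, named effector memory in the labels) and postmitotic cells (CD44-lo/CD62L-hi) were sorted from B6/SJL recipients, 4 pooled for each preparation, in which graft-versus-host disease had been induced. Those recipients had received 10 Gy, CD44-lo/CD62L-hi donor CD8+ T cells from C3H.SW mice and T cell-depleted bone marrow 14 days earlier. The donors were female and the recipients male. Each group had 3 arrays, called biological replicates by the labels. The naive cells went through neither irradiation nor transfer, so in comparisons with naive cells the population cannot be told apart from the transplant and its 14 days.

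Glycolysis splits glucose into pyruvate. Hexokinase and phosphofructokinase catalyse its early, largely irreversible steps and pyruvate kinase its last. Lactate dehydrogenase then turns pyruvate into lactate, while pyruvate dehydrogenase, which its kinases switch off by phosphorylation, admits it to the mitochondrial citrate cycle. The pentose phosphate pathway branches off at glucose 6-phosphate. Its oxidative arm makes NADPH and its non-oxidative arm makes and recycles ribose for nucleotides. Activated and dividing T cells are known for high rates of glycolysis, and hypoxia-inducible factor 1, of which Hif1a encodes the regulated subunit, is known to switch on many of these genes.

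Values below are the deposited log2 signals, on which zero signal reads 6.64 and nothing can fall below 5.64, so that folds of genes just above zero signal are understated, while differences from a mean below it depend on how low values are treated. Differences are log2 differences of group means with the adjusted p of limma over all genes, and a gene is called at an adjusted p under 0.05. Brightness differs between probe sets, so levels are compared between groups only. None of the 9 measured CD8+ T cell markers was at zero signal on all arrays, and the sort marker Cd44 followed the gates. The signal of 4 Y-linked genes summed to 22.5 to 173 on 7 arrays, but to 971 on the third effector array and 3816 on the third postmitotic array. These sums are linear signals recovered from the log2 values, and so are the sums that follow. The difference between the 3′ and 5′ Gapdh controls, a measure of RNA length, was 2.99 to 3.12 in naive, 2.84 to 2.88 in effector and 2.89 to 2.96 in postmitotic arrays. For the actin control it was 1.28 to 1.87, 0.78 to 0.97 and 1.35 to 1.48. For the transferrin receptor control it was 0.38 to 0.54, 1.28 to 1.94 and 1.07 to 1.75. The part of RNA length in the results below was not tested.

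Effector cells were compared with naive cells first. Of the 34 tested members, 16 were called (47.1%), against 30.8% of all 13152 genes. Of those, 14 rose and 2 fell, while over all genes 14.5% rose and 16.3% fell. Hexokinase 2, the muscle enolase Eno3, triosephosphate isomerase Tpi1 and Hif1a rose most, and Pdk1 and the lactate dehydrogenase subunit Ldhb fell. The median difference of the members was 0.18, against -0.06 over all genes. The 24 measured cell cycle genes moved in the same comparison: all 24 rose, with a median difference of 2.66, and their summed signal went from 28317 to 30762 in naive arrays to 119570 to 122824 in effector arrays. Of 18 myeloid markers 3 rose and 1 fell, with sums of 3930 to 5491 in naive and 4673 to 9699 in effector arrays. Of 8 dendritic and class II markers 3 rose, with sums of 1182 to 1542 and 4132 to 4710. Of 6 NK markers 2, Nkg7 and Klrk1, which CD8+ T cells are also known to express, rose, with sums of 14908 to 15448 in naive, 36904 to 39756 in effector and 21102 to 22099 in postmitotic arrays, while Klrb1c lay at zero signal on all arrays. Of 14 erythroid and megakaryocytic markers 1 rose and 2 fell, and of 10 B and plasma cell markers 2 rose and 2 fell. The part of dividing or other cells in the members' differences was not tested, and in sorted bulk samples a change in the mix of cells and a change per cell cannot be told apart.

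**Figure D1:**
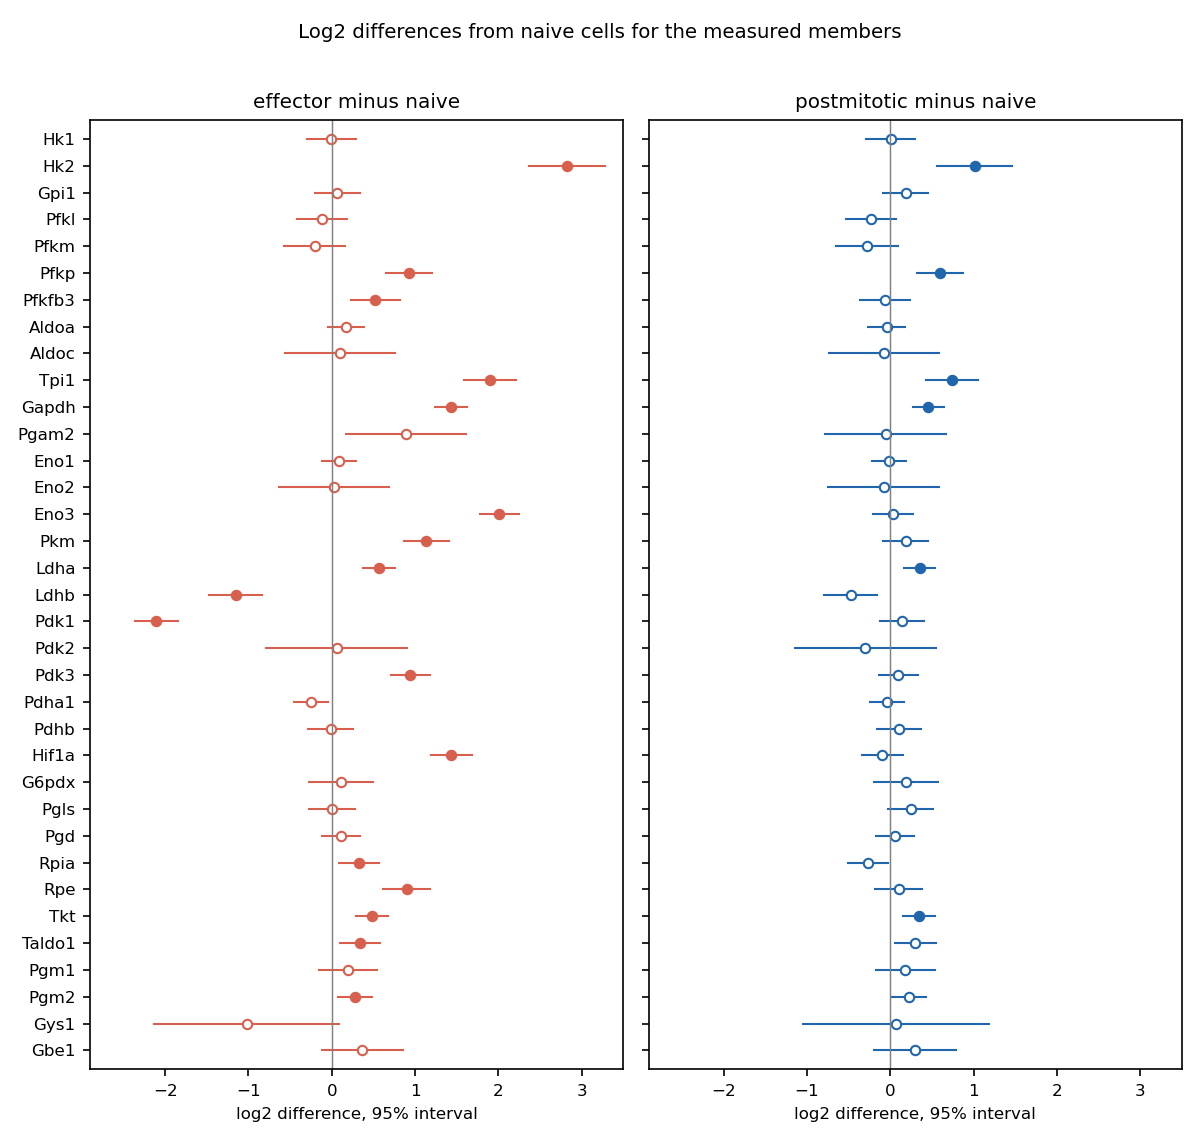
Log2 difference from naive cells (x axis) for the 35 measured members (y axis), effector cells on the left and postmitotic cells on the right. Points are differences of group means, lines are 95% intervals from limma and filled points are called at an adjusted p under 0.05. On the left 15 points including Gapdh are filled to the right of 0 and 2, Ldhb and Pdk1, to its left. On the right 6 including Gapdh are filled, all above 0, and both panels use the same naive arrays.

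The promoters of the members with the 3 largest called rises and the 2 largest called falls between effector and naive cells are shown for orientation. Each is the 250 bases before the first start listed for the gene in RefSeq (GRCm38.p6), 5′ to 3′ in the direction of the gene. The first listed start is not always the outer end of the gene. That of Eno3 lies inside the gene's span (chr11:70653125-70662513), and the Pdk1 window reaches into its gene's span, which begins at 71873215. Capitals mark ACGTG or GCGTG, the core letters of hypoxia response elements, on either strand, where they read CACGT and CACGC.
Hk2, chr6:82774455-82774704 (minus strand): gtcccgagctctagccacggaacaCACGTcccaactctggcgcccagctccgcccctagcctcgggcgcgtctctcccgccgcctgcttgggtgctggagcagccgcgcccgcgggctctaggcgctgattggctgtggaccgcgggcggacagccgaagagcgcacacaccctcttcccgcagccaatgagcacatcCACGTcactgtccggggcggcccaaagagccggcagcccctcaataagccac
Eno3, chr11:70656926-70657175 (plus strand): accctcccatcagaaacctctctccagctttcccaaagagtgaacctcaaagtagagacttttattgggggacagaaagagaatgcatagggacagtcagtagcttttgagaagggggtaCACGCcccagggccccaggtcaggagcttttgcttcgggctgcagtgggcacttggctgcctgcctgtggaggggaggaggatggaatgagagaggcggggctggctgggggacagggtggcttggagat
Tpi1, chr6:124814159-124814408 (minus strand): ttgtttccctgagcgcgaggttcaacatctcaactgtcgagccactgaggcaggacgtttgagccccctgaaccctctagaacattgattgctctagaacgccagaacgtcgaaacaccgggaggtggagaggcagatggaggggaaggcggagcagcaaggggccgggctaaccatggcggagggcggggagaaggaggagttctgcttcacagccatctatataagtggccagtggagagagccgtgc
Pdk1, chr2:71872974-71873223 (plus strand): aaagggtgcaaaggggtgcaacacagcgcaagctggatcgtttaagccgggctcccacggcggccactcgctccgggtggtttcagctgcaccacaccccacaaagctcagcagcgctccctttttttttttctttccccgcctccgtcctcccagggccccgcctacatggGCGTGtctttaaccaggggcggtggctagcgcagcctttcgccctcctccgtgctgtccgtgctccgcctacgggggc
Ldhb, chr6:142507958-142508207 (minus strand): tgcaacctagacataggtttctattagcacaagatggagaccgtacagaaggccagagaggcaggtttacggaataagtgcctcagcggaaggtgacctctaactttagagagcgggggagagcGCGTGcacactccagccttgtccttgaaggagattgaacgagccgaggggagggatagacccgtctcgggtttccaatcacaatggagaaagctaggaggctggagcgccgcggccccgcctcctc
Hk2 held 2 matches to ACGTG, Eno3, Pdk1 and Ldhb 1 each to GCGTG, and Tpi1 none, so matching and unmatched windows both occurred among the rises and both falls had a match. A second listed start of Pdk1 had none. Over the 49 windows listed for the 34 members, 35 (71.4%) held ACGTG or GCGTG, against 6469 of the 12792 windows of tested genes (50.6%) and 38.6% of all 32851 windows. At least 1 window of 27 of the 34 genes had a match, and Eno2, Gbe1, Gpi1, Gys1, Pgam2, Rpe and Tpi1 had none. The share of genes with a match was not taken over all tested genes, so this count has no background. The longer CACGTG, which contains ACGTG, stood in windows of 5 members, Hif1a, Ldha, Pdk2, Pfkfb3 and Pfkm. These windows made up 10.2% of member windows, against 7.75% for tested genes. These are matches of letters only, and several windows, some of them overlapping, can belong to 1 gene.

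The entry of glucose into the pathway differed between the hexokinases. Hk2, the inducible hexokinase, read 8.81, 8.31 and 8.94 on the naive arrays, 11.42, 11.69 and 11.43 on the effector arrays and 9.41, 9.77 and 9.92 on the postmitotic arrays. The 3 groups did not overlap, with postmitotic arrays between the others. In effector cells Hk2 rose by 2.82 on the log2 scale, 7.08-fold (SE 0.197, adjusted p = 1.9e-05), more than any other member. In postmitotic cells it rose by 1.01 over naive cells (2.02-fold, adjusted p = 0.0154) and lay 1.81 below effector cells (-1.81, adjusted p = 0.000302). Hk1, the widely expressed hexokinase, read 11.98, 11.53 and 11.73 in naive, 11.81, 11.71 and 11.71 in effector and 11.80, 11.63 and 11.83 in postmitotic arrays. Its groups overlapped, and its difference between effector and naive cells was -0.01 with a 95% interval from -0.30 to 0.29.

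In the upper steps 3 of 8 tested members rose in effector cells and none fell, 37.5% called against 30.8% of all genes. Tpi1, which interconverts the triose phosphates, read 11.06, 10.58 and 10.74 in naive, 12.78, 12.57 and 12.72 in effector and 11.59, 11.47 and 11.55 in postmitotic arrays. Effector arrays were high, postmitotic arrays lay between, and no group overlapped another. Tpi1 rose by 1.90 in effector cells (3.73-fold, adjusted p = 2.12e-05) and by 0.74 in postmitotic cells (1.67-fold, adjusted p = 0.012), and postmitotic cells were 1.16 below effector cells (-1.16, adjusted p = 0.000427). All 3 of its probe sets gave these 3 calls when probe sets were tested singly.

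The phosphofructokinase genes went separate ways. Pfkp, the platelet-type enzyme, read 11.51, 11.63 and 11.55 in naive, 12.28, 12.63 and 12.56 in effector and 12.03, 12.18 and 12.28 in postmitotic arrays. Its naive arrays lay below all others. Pfkp rose by 0.93 in effector cells (1.90-fold, adjusted p = 0.000552) and by 0.60 in postmitotic cells (1.51-fold, adjusted p = 0.0169), and the difference between these 2 groups, -0.33, was not called (adjusted p = 0.0804). Pfkl, the liver type, read 10.79, 10.49 and 10.71 in naive, 10.60, 10.44 and 10.60 in effector and 10.61, 10.22 and 10.46 in postmitotic arrays, which overlapped throughout. The muscle type Pfkm spanned 8.04 to 8.64 over all arrays and was not called either. Pfkfb3, which makes the activator fructose 2,6-bisphosphate, read 8.43, 8.72 and 8.58 in naive, 9.01, 9.13 and 9.16 in effector and 8.63, 8.28 and 8.62 in postmitotic arrays. Effector arrays alone were high, 0.52 above naive cells (adjusted p = 0.0152) with postmitotic cells 0.59 below them (-0.59, adjusted p = 0.0107). The mean of its 3 probe sets turned the first difference to -0.08 (adjusted p = 0.709). Its other probe sets, tested singly, differed by -0.55 and -0.20, neither called. Gpi1, Aldoa and Aldoc were not called in any comparison, and their effector minus naive differences were 0.07, 0.17 and 0.10.

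**Figure D2:**
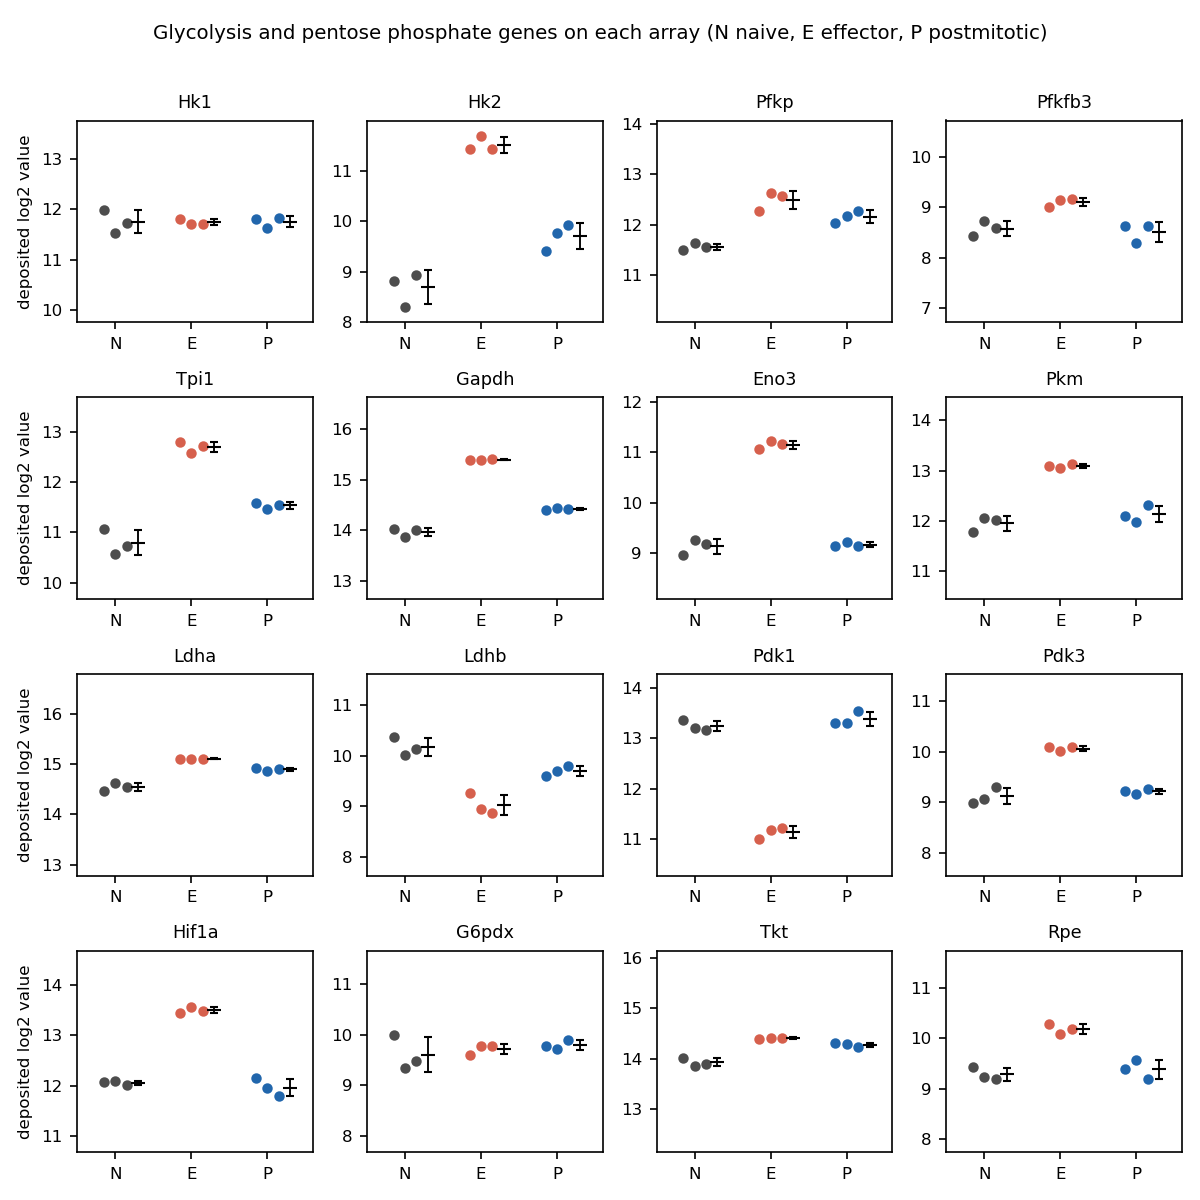
Deposited log2 value (y axis, 4 log2 units in every panel) of 16 members on each array. Coloured points are arrays in the order of their replicate numbers, and the bar beside each group is its mean with SD (n = 3). Hk2, Tpi1 and Gapdh step down from effector over postmitotic to naive arrays, Eno3, Pdk3 and Hif1a stand apart in effector arrays alone, Pdk1 is low there, and Hk1 and G6pdx overlap in all groups.

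In the lower steps Gapdh, Eno3 and Pkm rose in effector cells. Gapdh, glyceraldehyde-3-phosphate dehydrogenase, read 14.02, 13.87 and 14.01 in naive, 15.40, 15.39 and 15.40 in effector and 14.40, 14.44 and 14.43 in postmitotic arrays on the 3′ control probe set. Its 3 groups were separate and narrow. With control probe sets kept in the fit, it rose by 1.43 in effector cells (2.70-fold, adjusted p = 6.44e-06) and by 0.46 in postmitotic cells (1.37-fold, adjusted p = 0.0113), which lay 0.97 below effector cells (-0.97, adjusted p = 7.8e-05). Its middle and 5′ control probe sets differed by 1.91 and 1.62 between effector and naive cells. The 3′ probe set ranked between 90 and 446 in brightness among the 22690 probe sets of an array, and whether such bright signals are compressed was not tested.

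Eno3, the muscle enolase, read 8.96, 9.25 and 9.19 in naive, 11.06, 11.22 and 11.15 in effector and 9.13, 9.22 and 9.14 in postmitotic arrays. Only its effector arrays were high, by 2.01 (4.03-fold, adjusted p = 3.88e-06), and the postmitotic minus naive difference was 0.03 with an interval from -0.21 to 0.27. A second, dimmer probe set of Eno3 differed by -0.34 between effector and naive cells and was not called. Eno1, the enolase of most tissues, spanned 13.26 to 13.53 and differed by 0.09 (interval -0.11 to 0.29). Pkm, pyruvate kinase, read 11.79, 12.06 and 12.01 in naive, 13.09, 13.05 and 13.12 in effector and 12.11, 11.99 and 12.31 in postmitotic arrays. Effector arrays were high and the others overlapped, and Pkm rose by 1.13 (2.19-fold, adjusted p = 0.000166) and was 0.95 lower in postmitotic than in effector cells (-0.95, adjusted p = 0.000562). The neuronal enolase Eno2 and the muscle mutase Pgam2 lay near or below zero signal, Pgam2 on all 6 naive and postmitotic arrays, and neither was called.

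Pgk1 and Pgam1, which no single-gene probe set measured, were seen through shared ones. For Pgk1, phosphoglycerate kinase, 3 probe sets that name 3 or 4 genes differed by 0.89, 0.60 and 0.30 between effector and naive cells, the first 2 called, and by 0.41, 0.29 and 0.25 between postmitotic and naive cells, the first called. For Pgam1, the widely expressed mutase, the shared probe set differed by 0.48 and 0.58 in the same comparisons, both called. Signal from the other genes named by those probe sets cannot be told apart from theirs. Tested singly, 26.0% and 8.19% of all 22626 probe sets were called in these comparisons.

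The 2 lactate dehydrogenase subunits moved in opposite directions in effector cells. Ldha, the subunit that prevails in glycolytic tissue, read 14.46, 14.62 and 14.54 in naive, 15.11, 15.10 and 15.11 in effector and 14.93, 14.86 and 14.89 in postmitotic arrays. All recipient-derived arrays lay above the naive ones. Ldha rose by 0.57 in effector cells (1.48-fold, adjusted p = 0.00104) and by 0.35 in postmitotic cells (1.28-fold, adjusted p = 0.0294), and the difference between both was not called (-0.21, adjusted p = 0.096). Ldhb, the subunit that prevails in oxidative tissue, read 10.38, 10.01 and 10.14 in naive, 9.25, 8.95 and 8.87 in effector and 9.60, 9.70 and 9.79 in postmitotic arrays. The effector arrays were lowest and the postmitotic arrays between. Ldhb fell by 1.15 in effector cells (2.22-fold, adjusted p = 0.000395) and was 0.67 higher in postmitotic than in effector cells (adjusted p = 0.00797). Its 4 probe sets all fell in effector cells, by 1.15 to 2.27 on the log2 scale. Against naive cells the brightest was 0.48 lower in postmitotic cells and not called (-0.48, adjusted p = 0.0623), while 2 of the 4 were called lower when tested singly, at -0.98 and -0.66.

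At the entry of pyruvate into the mitochondria the kinases diverged. Pdk1, a pyruvate dehydrogenase kinase, read 13.36, 13.21 and 13.16 in naive, 11.00, 11.18 and 11.22 in effector and 13.30, 13.31 and 13.55 in postmitotic arrays. It was low in effector cells alone, fell by 2.11 there (4.31-fold, adjusted p = 5.03e-06) and differed by 0.14 between postmitotic and naive cells (interval -0.12 to 0.40). Its second probe set fell by 2.65. Pdk3, another kinase of the family, ranged from 8.99 to 9.30 in naive, 10.01 to 10.10 in effector and 9.17 to 9.26 in postmitotic arrays, and rose by 0.94 in effector cells (adjusted p = 0.000224). Pdk2 had arrays at or below zero signal in every group. The subunits Pdha1 and Pdhb of the dehydrogenase were not called, at -0.25 (adjusted p = 0.0637) and -0.01, although the second probe set of Pdha1, tested singly, fell by 0.61 in effector cells.

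Hif1a read 12.08, 12.09 and 12.01 in naive, 13.44, 13.56 and 13.48 in effector and 12.14, 11.94 and 11.79 in postmitotic arrays. Its RNA was high in effector cells alone, by 1.44 (2.71-fold, adjusted p = 2.71e-05), and the postmitotic minus naive difference was -0.10 (interval -0.34 to 0.15). The other 2 probe sets rose by 1.30, from naive arrays at or below zero signal, and by 1.89. They lay 0.66 and 0.77 above naive cells in postmitotic cells, where the brightest lay 0.10 below (-0.10), and none of the 3 was called there. The activity of the factor is set mainly by the stability of its protein, which RNA does not show.

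In the pentose phosphate pathway calls of the brightest probe sets fell on the non-oxidative arm, but the arms were not tested against each other. The interval of G6pdx given below also covers the rises of Rpia, Taldo1 and Tkt. By their brightest probe sets none of the 3 oxidative enzymes was called by limma in any comparison, and 0 had an unadjusted p under 0.05. G6pdx, the first dehydrogenase, read 9.99, 9.34 and 9.49 in naive, 9.60, 9.78 and 9.77 in effector and 9.77, 9.71 and 9.90 in postmitotic arrays, with all groups overlapping and an effector minus naive difference of 0.11 (interval -0.27 to 0.49). Pgd, the second dehydrogenase, read 12.64, 12.50 and 12.57 in naive, 12.71, 12.65 and 12.68 in effector and 12.75, 12.67 and 12.47 in postmitotic arrays, a difference of 0.11 (interval -0.12 to 0.33) between the first 2 groups. Of its 4 probe sets the dimmest, tested singly, rose by 0.49 in effector cells and was called (limma adjusted p = 0.0117). That probe set stands for Pgd when probe sets whose names mark cross-hybridisation are left out. Pgd was then called higher in effector cells in the test over genes (limma adjusted p = 0.00895). The lactonase Pgls differed by 0.00 (interval -0.27 to 0.28).

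All 4 non-oxidative enzymes were called higher in effector cells in the test over genes, where 14.5% of all genes were called higher. When probe sets were tested singly, Rpia (adjusted p = 0.0635) and Taldo1 (adjusted p = 0.0547) were not called. The epimerase Rpe rose by 0.90 (1.86-fold, adjusted p = 0.000783), from 9.19 to 9.43 in naive to 10.09 to 10.28 in effector arrays, and its second probe set by 0.33. Transketolase, Tkt, read 14.02, 13.86 and 13.90 in naive, 14.39, 14.42 and 14.42 in effector and 14.30, 14.28 and 14.22 in postmitotic arrays. It rose by 0.48 in effector cells (1.40-fold, adjusted p = 0.00268) and by 0.34 in postmitotic cells (1.27-fold, adjusted p = 0.0349). Its dimmer probe set, which replaces it when probe sets whose names mark cross-hybridisation are left out, was not called between effector and naive cells (adjusted p = 0.123). Transaldolase, Taldo1, read 11.78, 11.92 and 11.87 in naive, 12.11, 12.29 and 12.19 in effector and 12.10, 12.32 and 12.05 in postmitotic arrays, a rise of 0.34 in effector cells (adjusted p = 0.041). The call of Taldo1 was lost when 1 array was left out in 7 of 9 cases, with adjusted p up to 0.137 without effector replicate 2. The isomerase Rpia rose by 0.32 (adjusted p = 0.048) and was 0.59 lower in postmitotic than in effector cells (-0.59, adjusted p = 0.00396). Pgm2, a phosphopentomutase listed with the glycogen enzymes, rose by 0.28 in effector cells (adjusted p = 0.0484, and 0.068 when probe sets were tested singly). Pgm1, Gbe1 and Gys1 were not called. Both probe sets of Gys1 lay at or below zero signal on all 3 effector arrays. Tested singly, its second probe set was called lower in effector than in naive cells (-1.29, adjusted p = 0.0143). The deposited symbols of the Pgm1 and Pgm2 probe sets are swapped against RefSeq, whose current names are used here.

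Postmitotic cells were then set against naive cells, which share their gate. Of the 34 members 5 were called (14.7%), against 11.8% of all genes. All 5, Hk2, Ldha, Pfkp, Tkt and Tpi1, rose and none fell, while 6.13% of all genes rose and 5.70% fell, and the members' median difference was 0.08 against -0.01 over all genes. At an unadjusted p under 0.05 limma gave 7 higher and 2 lower members, the latter Ldhb and Rpia. Without the 2 arrays that carried Y-linked signal none of the 5 was called. Their differences were then 0.90 for Hk2, 0.35 for Ldha, 0.54 for Pfkp, 0.36 for Tkt and 0.73 for Tpi1, with adjusted p from 0.0801 to 0.122, and 3.81% of all genes were called. The member count was 1 without postmitotic replicate 2, 2 without naive replicate 3, and 3 without any single effector array or without postmitotic replicate 1 or 3. All genes called then numbered 901, 849 and 1032 to 1174, against 1556 with all arrays. Of the 24 cell cycle genes 13 rose in the same comparison, and their summed signal was 36581 to 46717 in postmitotic arrays. Class II and dendritic markers summed to 4187 on postmitotic replicate 1, and to 1202 and 1235 on the others. Of 14 erythroid and megakaryocytic markers Gata1 and Tfrc rose and Car2 fell. Their sums were 3560 to 3725 in postmitotic, 2093 to 3032 in naive and 2812 to 3022 in effector arrays. The part of these cells in the members' differences was not tested.

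Between postmitotic and effector cells 11 of 34 members were called (32.4%), against 24.9% of all genes. Ldhb and Pdk1 were higher in postmitotic cells, and 9 were lower: Eno3, Hif1a, Hk2, Pdk3, Pfkfb3, Pkm, Rpe, Rpia and Tpi1. Over all genes 13.2% were higher and 11.8% lower. The median was -0.11, against 0.04 over all genes. Of the cell cycle genes 21 of 24 were lower. Without both arrays with Y-linked signal 8 members were called lower and 1, Pdk1, higher, while 15.2% of all genes were called. The difference of Ldhb was then 0.55 (adjusted p = 0.0916). These arrays of effector and postmitotic cells also enter the comparisons above.

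The members took different positions in postmitotic cells along the difference between naive and effector cells. As a share of the effector difference, the postmitotic difference was 64.4% for Pfkp, 62.2% for Ldha and 71.0% for Tkt. It was 39.0% for Tpi1, 35.9% for Hk2, 31.9% for Gapdh and 41.4% of the fall for Ldhb. It was 16.2% for Pkm, 11.1% for Rpe, 10.0% for Pdk3 and 1.54% for Eno3. For Taldo1 and Pgm2 it was 88.4% and 81.1%. It was negative, with the postmitotic mean on the far side of the naive mean, for Pdk1 (-6.67%), Hif1a (-6.76%), Pfkfb3 (-12.4%) and Rpia (-82.1%). The sign depended on the probe set for Hif1a, Pdk1, Rpe and Pfkfb3. In postmitotic minus naive the other Hif1a probe sets gave 0.66 and 0.77 and the second Pdk1 set -0.18, all towards effector cells. The second Rpe set gave -0.108, away from effector cells. The other Pfkfb3 sets gave -0.045 and -0.225, in the direction of their own effector minus naive differences, which were not called. Of the genes given here, only Hk2, Tpi1, Gapdh, Pfkp, Ldha and Tkt were called in postmitotic minus naive. These shares are descriptions without an error, and each uses the same naive arrays in both differences. By calls, postmitotic cells lay between both other groups for 2 of 34 members, Hk2 and Tpi1 (5.88%), against 3.25% of all genes. They lay beyond both for none, against 3.13% of all genes.

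Of the 17 tested members with several single-gene probe sets, none had probe sets called in opposite directions. In effector minus naive, 6 had all their probe sets called in 1 direction when tested singly.

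**Figure D3:**
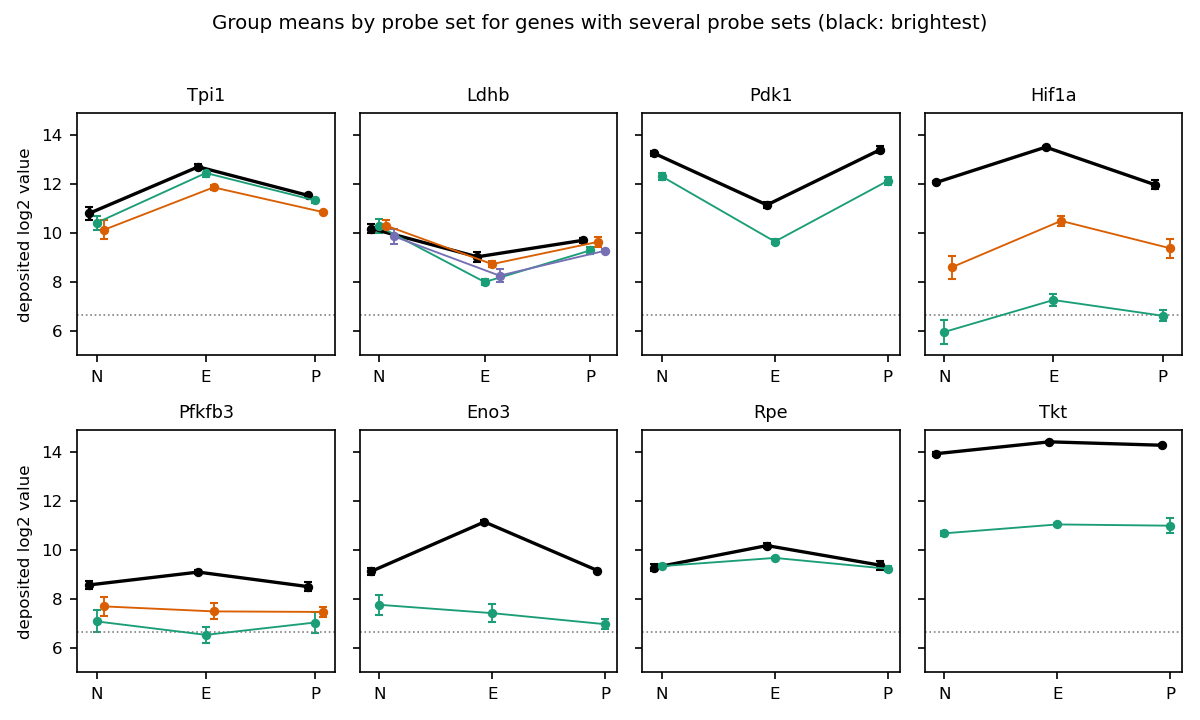
Group means with SD (n = 3) of the deposited log2 value for each single-gene probe set of 8 members, on a shared y axis. The black line is the brightest probe set, used in the text, and the dotted line marks zero signal, 6.64. The probe sets of Tpi1, Ldhb and Pdk1 run alike, while those of Pfkfb3 and Eno3 differ and the dimmest of Hif1a starts below zero signal.

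Other genes of sugar metabolism and of the hypoxia pathway did not lean the same way. Of 115 listed, 97 were tested. In effector minus naive 18 rose and 15 fell, which is 34.0% against 30.8% of all genes. In postmitotic minus naive 4 rose and 4 fell (8.25% against 11.8%), and in postmitotic minus effector 31 of 97 were called, 15 higher and 16 lower, against 24.9% of all genes.

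Among 14 transporter and chaperone genes, Slc2a3 and Bsg rose in effector cells and Emb, Slc16a1 and Slc2a4 fell, 35.7% called against 30.8% of all genes. Slc2a1, the main glucose transporter of activated T cells, read 11.71, 11.10 and 11.31 in naive, 11.68, 11.87 and 11.82 in effector and 11.50, 11.35 and 11.56 in postmitotic arrays. Its effector minus naive difference of 0.42 was not called (adjusted p = 0.0812), but it was called without naive replicate 1 (0.58, adjusted p = 0.00976), with a trended, robust prior (0.0117), with the mean of its probe sets (0.0169) and among genes above log2 8 (0.0274). Slc2a3, another glucose transporter, read 11.56, 11.37 and 11.42 in naive, 12.35, 12.27 and 12.27 in effector and 11.68, 11.71 and 11.49 in postmitotic arrays, a rise of 0.84 (adjusted p = 0.000338). With probe sets marked for cross-hybridisation left out, another probe set gave -0.01 (adjusted p = 0.978). The lactate carrier Slc16a1 read 10.24, 10.68 and 10.53 in naive, 9.68, 9.88 and 9.97 in effector and 10.57, 10.62 and 10.50 in postmitotic arrays and fell by 0.64 in effector cells (adjusted p = 0.00697). Slc16a3, the carrier that exports lactate from glycolytic cells, spanned 6.09 to 7.54 around zero signal and was not called. The transporter Slc2a8 was 1.79 lower in postmitotic than in effector cells (-1.79, adjusted p = 0.0199), to a mean below zero signal. With values raised to zero signal the difference was -1.12, without postmitotic replicate 3 it was -2.39, and the call was lost without effector replicate 1 or 2 or postmitotic replicate 1 or 2 (adjusted p 0.0611 to 0.0683).

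Among the side steps, Gpd2, the mitochondrial glycerol phosphate dehydrogenase of a shuttle for glycolytic electrons, had the largest differences. It read 8.46, 8.69 and 8.56 in naive, 10.55, 10.69 and 10.64 in effector and 6.61, 7.56 and 6.31 in postmitotic arrays, of which 2 lay below zero signal. Gpd2 rose by 2.06 in effector cells (4.17-fold, adjusted p = 0.000764), and postmitotic cells lay beyond naive cells on the other side, at -1.74 (adjusted p = 0.00742). The ADP-dependent glucokinase Adpgk fell by 0.79 in effector cells (adjusted p = 0.00725) and was 1.22 higher in postmitotic than in effector cells (adjusted p = 0.00102). With probe sets marked for cross-hybridisation left out, another Adpgk probe set gave -0.38 (adjusted p = 0.229) and 0.46 (adjusted p = 0.164), and both calls were lost. Dera, which cleaves deoxyribose phosphate, rose from 10.19 to 10.24 in naive to 11.36 to 11.48 in effector arrays, by 1.21 (adjusted p = 1.31e-05). Idh2, the mitochondrial NADP-dependent isocitrate dehydrogenase, fell from 10.66 to 10.68 in naive to 8.63 to 8.90 in effector arrays, by 1.93 (adjusted p = 5.76e-06), and read 10.54 to 10.79 in postmitotic arrays. Gfpt1, the first enzyme of hexosamine synthesis, rose by 1.52 (adjusted p = 0.00106). Tktl1, a transketolase-like gene near zero signal, was 1.11 lower in postmitotic than in effector cells (-1.11, adjusted p = 0.046), a call lost under 12 of 19 alternatives, and differed by -0.45 with values raised to zero signal. Of 7 genes of pyruvate entry Dld alone rose in effector cells and none fell, 14.3% called against 30.8% of all genes.

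The hypoxia and MYC genes were mixed: in effector cells 3 of 23 rose and 6 fell, 39.1% called against 30.8% of all genes. Epas1, which encodes HIF-2 alpha, rose by 2.91 (adjusted p = 6.84e-05), from 6.79, 5.64 and 6.21 to 8.99, 9.32 and 9.08, an approximate size because its naive mean lay below zero signal. Vegfa, a growth factor gene and known target of the factor, rose by 0.92 (adjusted p = 0.00595), a call lost with the mean of its probe sets (0.878). P4ha1 and Bnip3, also known targets, fell by 1.38 (adjusted p = 6.12e-05) and 1.12 (adjusted p = 0.0276). The call of Bnip3 was lost under 7 of 20 alternatives, with adjusted p up to 0.0982. Myc, the transcription factor known for raising glycolysis genes in activated T cells, read 9.96, 10.21 and 10.16 in naive, 9.25, 9.44 and 9.55 in effector and 10.50, 10.72 and 10.94 in postmitotic arrays. It fell by 0.70 in effector cells (adjusted p = 0.00609) and rose by 0.61 in postmitotic cells (adjusted p = 0.0294). The second call was lost under 8 of 20 alternatives, with adjusted p up to 0.112 without both arrays with Y-linked signal. Egln3, a prolyl hydroxylase of the hypoxia pathway, fell in postmitotic cells by 1.39 (adjusted p = 0.0424), a call lost under 10 of 19 alternatives.

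**Figure D4:**
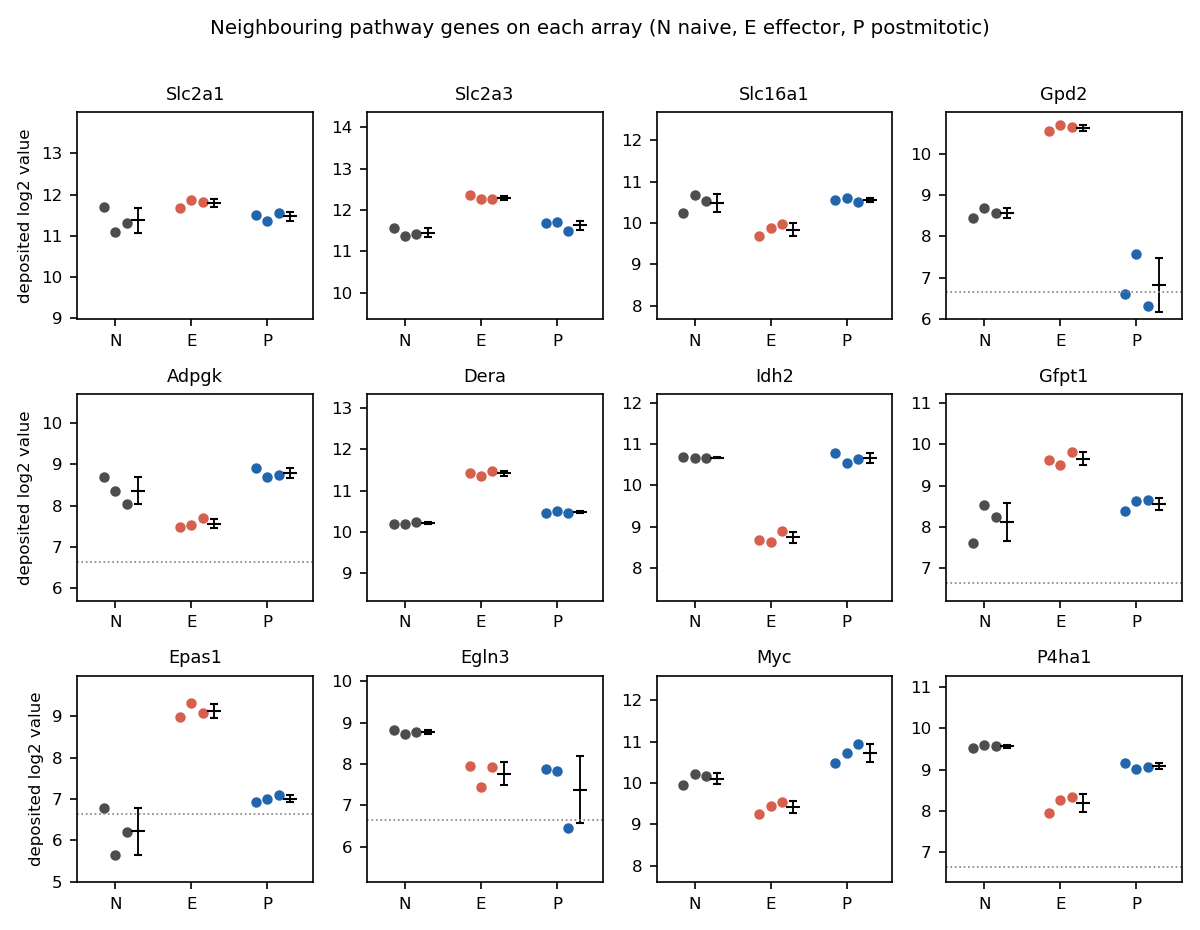
Deposited log2 value (y axis, 5 log2 units in every panel) of 12 genes next to the pathway on each array. Coloured points are arrays, bars are group means with SD (n = 3) and the dotted line, where in range, marks zero signal. Gpd2 is highest in effector and lowest in postmitotic arrays, Myc runs the other way, and Idh2 and Slc16a1 are low in effector arrays alone.

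The authors' deposited table, with its own threshold on p and fold, selected 8 of the tested members as higher and 2 as lower in effector than in naive cells, and 9.12% and 9.28% of all 13152 genes. The authors' deposited table selected 3 members as higher and none as lower in postmitotic than in naive cells, and 3.47% and 2.59% of all genes. Between postmitotic and effector cells the authors' deposited table selected 2 members as higher and 9 as lower, and 7.16% and 7.52% of all genes.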

How the data were processed

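RNA of 9 sorted CD8+ T cell samples, 3 each of naive, effector and postmitotic cells, was measured on Affymetrix Mouse430A 2.0 arrays. A double round of amplification started from 600 ng of RNA, per the labels' protocols. Per the file headers, the authors quantile-normalized trimmed means of each probe set to naive replicate 2, added 50, set negative results to 0, added 50 again and took log2. Zero signal therefore reads log2 6.64 and the lowest possible value is 5.64. Array medians were 7.90, and between 15.7% and 16.0% of probe sets per array were at or below zero signal, so a change in total RNA per cell would not be seen. The authors' deposited selection columns hold a signed score, the fold of selected probe sets. The 3 arrays per group limit the precision, and p-values measure the spread between pooled preparations. Scanner files were not analysed here.

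Of 22690 probe sets, 64 were controls and 21259 named 1 gene. Symbols were updated through Entrez numbers to RefSeq (GRCm38.p6), where 20752 matched. The brightest probe set stood for each of 13152 genes. Limma 3.58.1 in R 4.3.3 (lmFit and eBayes, 3 group means over 9 arrays, no covariate, 6 residual and 2.14 prior degrees of freedom) gave moderated tests, adjusted by Benjamini-Hochberg over all genes. The fit was tested on simulated data. Probe sets tested singly were adjusted over 22626.

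The members and lists were chosen with earlier results of these data known. Named with values for each array were members called at a log2 difference of at least 1 and, whatever their values, Hk1, Hk2, Pfkl, Pfkp, Pfkfb3, Gapdh, Pkm, Ldha, Ldhb, Pdk1, G6pdx, Pgd, Tkt, Taldo1 and Hif1a. Related genes were named by the same size, plus Slc2a1, Slc2a3, Slc16a1, Slc16a3 and Myc. Other genes, given by ranges or differences, were picked after their values were seen. All 34 members had a RefSeq promoter. Alternatives left out arrays, added a replicate block, and changed the variance prior, probe set choice, low values, filter and scaling. Probe sets tested singly and the choice without probe sets marked for cross-hybridisation were added after seeing the data.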

Additional observations from a re-analysis of the deposited data

How the results depend on the processing

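Of 54 differences called for single named genes, 31 were called under every alternative run for them, 20 at most, and 23 were lost under at least 1, while 16 of 45 differences that were not called passed under at least 1. Of 16 named members other than Gapdh, 9 of 12 effector minus naive calls, 6 of 8 postmitotic minus effector calls and 0 of 5 postmitotic minus naive calls held under every alternative. Of the called differences only those of Pfkfb3 with the mean of its probe sets (-0.076) and Slc2a3 without cross-hybridising probe sets (-0.015) turned in direction, both in effector minus naive, while 22 differences that were not called changed sign under at least 1 alternative. The cause of these changes was not tested, beyond the fewer arrays or genes an alternative holds.

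Members higher in postmitotic than naive cells numbered 1 with only the 6 arrays compared and 0 without both arrays with Y-linked signal. Members lower there numbered 2 with a trended, robust prior, 1 with the mean of probe sets, 1 with values raised to zero signal and 1 with genes above log2 8. Members lower in effector cells numbered 4 with the mean of probe sets. Members higher in postmitotic than effector cells numbered 4 with it and 1 without both arrays with Y-linked signal. Members between numbered 0 and 0 with the 6 arrays or without both Y-signal arrays, 5 with the prior, 4 with raised values and 5 above log2 8, and 1 lay beyond both with the prior. Neither count was taken over all genes under the alternatives, so these have no background. With the mean of probe sets all genes called numbered 3630 in effector minus naive, 1130 in postmitotic minus naive and 2911 in postmitotic minus effector. The count of all genes in postmitotic minus naive was 575, 501, 2351, 2057 and 2395 with the 6 arrays, without both Y-signal arrays, with the prior, with raised values and above log2 8. In postmitotic minus effector it was 1998 without both Y-signal arrays. Related genes higher in postmitotic than naive cells numbered 2, 2, 7, 7, 9 and 7 with the 6 arrays, without both Y-signal arrays, with the prior, raised values, log2 8 and a floor of 32, and those lower 1, 8, 7 and 7 with the 6 arrays, prior, raised values and log2 8. Related genes lower in postmitotic than effector cells numbered 8 without both Y-signal arrays.

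Leaving out 1 array gave 10 to 12 members higher and 2 to 3 lower in effector minus naive, 1 to 5 higher and 0 lower in postmitotic minus naive, 2 to 3 higher and 9 to 10 lower in postmitotic minus effector, and 1 to 3 between. All genes ranged from 3133 to 4153, 849 to 1461 and 2440 to 3482, in that order of comparisons. The middle count fell by over 1.5 times without naive replicate 3 (849), effector replicate 3 (1032) or postmitotic replicate 2 (901). Related genes ranged from 12 to 20 higher and 12 to 17 lower, 2 to 5 and 1 to 4, and 11 to 15 and 10 to 16.

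Same-numbered arrays deviated from their group means with correlations of 0.0146 to 0.0615, none of 9 over 0.1. No such value was taken for arrays of different numbers, so whether same-numbered arrays share a preparation cannot be told. The effector and postmitotic arrays with Y-linked signal were both replicate 3. The replicate block gave 13 members higher and 2 lower in effector minus naive, 3 and 0 in postmitotic minus naive and 2 and 9 in postmitotic minus effector, and 1 related gene lower in postmitotic than naive cells. All genes called with the block numbered 3830, 1130 and 3039 in that order of comparisons. Equal medians of bright probe sets moved arrays by up to 0.03 and no member count.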
